A study of Homo sapiens with 18 samples.

Results

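The effect of STA9090 averaged over 3 drug backgrounds was measured in all 18 RNA sequencing libraries of the series, 9 with STA9090 and 9 without. STA9090 (ganetespib) inhibits HSP90, the chaperone that finishes the folding of many kinases and steroid receptors. The cells were NCI-H295R, 1 steroid-producing line from a human adrenocortical carcinoma, so nothing here speaks for other lines or for tumours. In the background with no PI3K inhibitor, untreated cells were set against cells given STA9090 alone. In the PIK75 background, cells given PIK75, a PI3K inhibitor, were set against cells given STA9090+PIK75. In the BGT226 background, cells given BGT226, an inhibitor of PI3K and mTOR, were set against cells given STA9090+BGT226. Each of these 6 groups had 3 biological replicates, collected at 48 h with a stated dose of 20 nM. How the dose was split within a combination, and which vehicle the untreated cells received, is not given in the sources used here.

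HSP90 works with HSP70 and a set of co-chaperones in the cytosol, while the endoplasmic reticulum (ER) and the mitochondria have relatives of their own. Inhibition of HSP90 is known to release heat shock factor 1, which then switches on chaperone genes through heat shock elements in their promoters. ER chaperones answer to a separate signal, the unfolded protein response, in part through ER stress response elements. Adrenocortical cells spend much of their transcription on steroid enzymes, which the pituitary hormone ACTH and angiotensin control.

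Expected counts per library summed to between 10.2 and 21.1 M, and 15787 of 58870 genes had enough counts to be tested. All 8 adrenocortical markers looked for were measured, at 1027 to 2686 CPM (counts scaled to a common library total) in sum, while of 17 fibroblast, endothelial and leukocyte markers 3 were measured (COL1A1, CD14 and CD79A) and 3 were at 0 in every library. The 17 summed to 8.06 to 14.7 CPM without STA9090 and 3.97 to 11.9 with it. RNA polymerase III transcripts took 34.6% ± 3.23 of the counts without STA9090 and 36.7% ± 2.49 with it (SD, n = 9; difference 2.07 points, 2-sided exact permutation test within backgrounds, p = 0.109, adjusted p = 0.327). Without untreated replicate 2 that difference was 2.95 points (p = 0.0265, unadjusted, same exact test). Mitochondrial mRNA took 7.95% ± 1.90 and 8.34% ± 1.34 (exact permutation test, p = 0.636, adjusted p = 0.954), where the smallest p the design allows is 0.00025. On the third principal component, which held 9.85% of the variance, the 9 libraries with STA9090 lay between 5.89 and 30.1 and the 9 without between -35.4 and 0.827. STA9090 replicate 1 (30.1) and PIK75 replicate 3 (-35.4) stood apart from their groups there. Without both, the average calls of HSP90AB1 (0.17, edgeR's adjusted p = 0.0714), CRELD2 (-0.37, 0.0734), COL1A1 (-0.62, 0.0746), IFI6 (-0.37, 0.0696), IFIT3 (0.41, 0.0593) and CD14 (0.81, 0.0686) were lost, and no other gene whose values follow lost its call. CD14, at 2 to 16 counts a library, also lost its call in 13 of the 18 fits that left out 1 library. COL1A1 lost its call in 4 of them, and IFI6 and IFIT3 in 0. The call of COL1A1 was also lost without the PIK75 background (-0.25, edgeR's adjusted p = 0.174) and without the background with no PI3K inhibitor (-0.95, 0.0539).

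Averaged over backgrounds, STA9090 changed many transcripts by little. It raised 1162 genes (7.36% of those tested) and lowered 1531 (9.70%), at adjusted p under 0.05 in edgeR's quasi-likelihood test with the background as a covariate. The median size of a called change was 0.30 on the log2 scale. Changes of at least 1.5-fold numbered 165 higher and 126 lower, and at least 2-fold 41 and 16. Without STA9090 replicate 1 and PIK75 replicate 3, 713 genes were higher and 1229 lower.

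Of the 2693 called genes, 2471 (91.8%) had the same sign in each background, 1059 higher (6.71% of tested genes) and 1412 lower (8.94%). Among all tested genes, called or not, 39.4% had 1 sign throughout. The calls came from the average of the same libraries, which favours genes of 1 sign. The 91.8% is thus no test of agreement between backgrounds. Effects were most often largest in the PIK75 background. It held the largest of the 3 effects for 1789 called genes (66.4%), against 479 (17.8%) with no PI3K inhibitor and 425 (15.8%) with BGT226. These are shares of called genes, and no such share was counted over all tested genes. Over all tested genes the SD of the effects was 0.50 with PIK75, 0.37 with no PI3K inhibitor and 0.36 with BGT226. Leaving out the PIK75 background took the calls to 444 higher and 574 lower. The fits with and without it shared 786 calls, which is 29.2% of the first and 77.2% of the second. Without the BGT226 background, 737 genes were higher and 1191 lower.

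The 3 comparisons share no library, so each is a measurement of its own. Alone, the comparison with no PI3K inhibitor called 183 genes higher (1.16%) and 265 lower (1.68%), that with PIK75 1784 (11.3%) and 2209 (14%), and that with BGT226 156 (0.988%) and 268 (1.7%). A stricter set passed adjusted p under 0.05 in every background by itself. It held 15 genes that rose (0.095% of those tested) and 51 that fell (0.323%), and in 65 of these 66 the libraries with and without STA9090 did not overlap in any background. Across all genes, libraries failed to overlap in every background for 130 higher (0.823%) and 322 lower genes (2.04%). Much of what follows describes members of the strict set by what they do.

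Among the 15 risen genes 4 encode chaperones of the cytosol or their partners. They were HSP90AA1 (ENSG00000080824.18, chromosome 14, 102080738 to 102139699), the inducible form of HSP90 itself, HSPH1, an HSP110 protein that recharges HSP70 with nucleotide, DNAJA1, a J-domain partner of HSP70, and CHORDC1, which binds HSP90. Positions are those of GENCODE 29 on hg38. In RefSeq's promoter windows on GRCh38.p14, 250 bases before to 50 bases after the transcript start, DNAJA1, CHORDC1 and 1 of the 2 windows of HSP90AA1 held the heat shock element on either strand, here GAA, TTC and GAA with 2 free bases between neighbours. They are printed 5′ to 3′ on the gene's strand, with the matching bases in capitals. They are the 3 of the 15 risen genes with such a match, and other chaperone genes with a match are named further below.
HSP90AA1 (chr14:102086995-102087294, minus strand): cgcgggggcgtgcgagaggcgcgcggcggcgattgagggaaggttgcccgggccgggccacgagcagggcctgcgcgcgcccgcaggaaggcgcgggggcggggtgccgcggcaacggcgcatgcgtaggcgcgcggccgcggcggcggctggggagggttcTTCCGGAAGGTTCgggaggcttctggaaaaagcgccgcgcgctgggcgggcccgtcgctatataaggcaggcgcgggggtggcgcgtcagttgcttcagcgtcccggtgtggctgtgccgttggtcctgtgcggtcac
DNAJA1 (chr9:33025023-33025322, plus strand): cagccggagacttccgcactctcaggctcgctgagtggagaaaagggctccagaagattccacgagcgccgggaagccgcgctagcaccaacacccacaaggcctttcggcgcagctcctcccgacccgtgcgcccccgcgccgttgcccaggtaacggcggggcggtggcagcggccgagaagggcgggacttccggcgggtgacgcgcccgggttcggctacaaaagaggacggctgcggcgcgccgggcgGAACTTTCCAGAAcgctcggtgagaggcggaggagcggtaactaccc
CHORDC1 (chr11:90223000-90223299, minus strand): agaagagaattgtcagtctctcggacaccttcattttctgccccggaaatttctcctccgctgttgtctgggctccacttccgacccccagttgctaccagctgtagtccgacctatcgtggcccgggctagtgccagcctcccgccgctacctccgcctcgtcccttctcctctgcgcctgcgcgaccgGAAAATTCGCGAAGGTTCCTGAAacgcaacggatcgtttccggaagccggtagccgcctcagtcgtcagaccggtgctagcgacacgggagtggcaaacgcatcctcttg
The match lay 88 to 76 bases before the start in HSP90AA1 and at bases 4 to 16 after it in DNAJA1, and 3 overlapping matches ran from 60 to 38 bases before the start in CHORDC1. The element was in 0.490% of 35116 windows. It was found for 3 of the 14 strictly risen genes with a window (21.4%), for 2 of 38 strictly fallen ones (GLI2 and ST3GAL5, 5.26%), and for 0.508% of 10633 tested genes with a window. The window of HSPH1 held no match. These are matches of letters, and binding was not measured.

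HSP90AA1 was the most abundant of the 4. In the libraries without a PI3K inhibitor it stood at 197, 164 and 185 CPM untreated and at 326, 240.4 and 263 with STA9090. With PIK75 it stood at 178, 181 and 192 CPM and with STA9090+PIK75 at 325, 355 and 338. With BGT226 it stood at 147, 148 and 152 CPM and with STA9090+BGT226 at 212, 250.1 and 228. Every library with STA9090 was above every library without, in all backgrounds together, which was so for 10 of the tested genes (0.0633%) and the opposite for 38 (0.241%). The average rise was 0.71 (log2 fold change, SE 0.0645, adjusted p = 1.4e-06), made of 0.61, 0.89 and 0.63 with no PI3K inhibitor, PIK75 and BGT226, in that order, as are all sets of 3 log2 values below. The test that the effect differed between backgrounds did not pass (adjusted p = 0.302). In bulk RNA, more cells of a state and more RNA per cell cannot be told apart, here and below.

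The 3 partners rose by less. HSPH1 stood at 27.3, 22.2 and 26.3 CPM untreated against 39.4, 27.7 and 39.97 with STA9090, at 27.6, 29.1 and 30.4 with PIK75 against 50.4, 60.4 and 49.8 with the combination, and at 22.3, 19.9 and 21.6 with BGT226 against 27.6, 31.5 and 33.3 with the combination (log2 fold change 0.65, SE 0.0782, adjusted p = 1.82e-05). STA9090 replicate 2, the lowest of its group, was within a CPM of the highest untreated library. DNAJA1 stood at 56.6, 45.9 and 53.3 CPM untreated against 78.7, 65.4 and 59.6, at 56.8, 51.01 and 43.7 with PIK75 against 78.7, 77.6 and 82.2, and at 41.1, 41.7 and 42.1 with BGT226 against 51.5, 60.8 and 52.2 (log2 fold change 0.48, SE 0.0655, adjusted p = 6.15e-05). CHORDC1 ran from 8.40 to 12.6 CPM (median 9.73) in the 9 libraries without STA9090 and from 11.1 to 19.6 CPM (median 14.7) in the 9 with it (log2 fold change 0.53, SE 0.0713, adjusted p = 5.57e-05), and its effects of 0.52, 0.56 and 0.50 were nearly the same size in each background. For all 3, libraries with STA9090 lay above those without in each background, while the 9 and 9 overlapped once backgrounds were pooled.

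**Figure D1:**
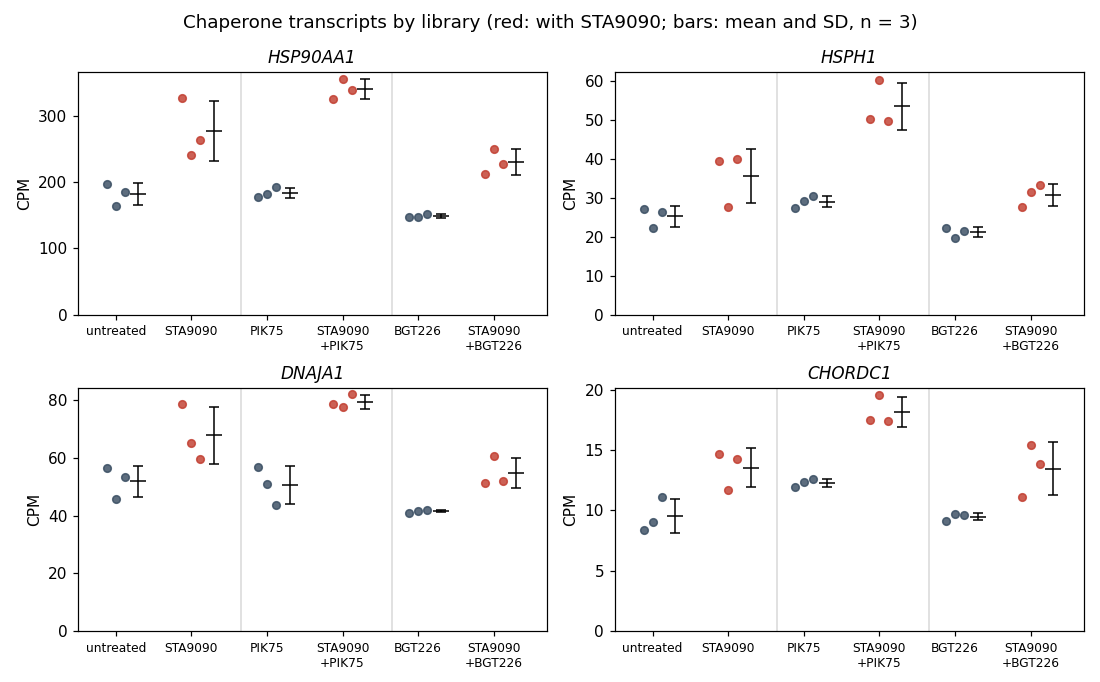
CPM of HSP90AA1, HSPH1, DNAJA1 and CHORDC1 in each of the 18 libraries (points), by group on the horizontal axis, with the mean and SD of 3 libraries (black); red marks STA9090. In every background the red points lie above the dark ones, and for HSP90AA1 the lowest red point of all exceeds the highest dark one.

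The wider chaperone lists rose in part. Of 20 HSP90 family members and co-chaperones measured, 8 rose and 0 fell (median 0.17, against 0.01 over all genes), and of 21 HSP70, HSP110 and HSP40 chaperones 7 rose and 0 fell (median 0.10). The background shares are the 7.36% of rises and 9.70% of falls given above, here and for every list count on average below. ST13, which joins HSP70 to HSP90, rose by 0.36 (SE 0.0589), and the HSP110 relatives HSPA4 and HSPA4L rose by 0.35 (SE 0.0562) and 0.41 (SE 0.0739), with effects of 0.38, 0.38 and 0.27 and 0.47, 0.41 and 0.35. STIP1, another link between HSP70 and HSP90, rose on average (0.34, SE 0.0775) but unequally, by 0.21, 0.71 and 0.09 (difference between backgrounds, adjusted p = 0.00475), and its call was lost without the PIK75 background (0.15, adjusted p = 0.158). HSP90AB1, the constitutive cytosolic form, rose by 0.18 (SE 0.0562, adjusted p = 0.0307), a call lost in 11 of the 18 fits that left out 1 library.

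HSPA8 and HSPA1A, which encode the constitutive and the inducible HSP70, did not pass on average. HSPA8 stood at 994, 1046 and 926 CPM untreated against 939, 1031 and 1049 with STA9090, at 849, 895 and 867 with PIK75 against 1369.5, 1258 and 1230.0, and at 737, 746 and 737 with BGT226 against 689.7, 659.5 and 674. It was thus higher with STA9090 in all libraries of the PIK75 background, mixed with no PI3K inhibitor, and lower in all libraries of the BGT226 background (log2 values 0.03, 0.56 and -0.13; difference between backgrounds, adjusted p = 0.00155). HSPA1A gave -0.08, 0.70 and -0.23 (adjusted p of the difference = 0.00155), with the caution that its reads may be divided with the near-identical HSPA1B, which gave -0.34, 0.12 and -0.44. HSPA1B held more counts (median without STA9090 389 CPM, against 51.8 for HSPA1A) and did not pass on average either. DESeq2 called it lower (-0.23, adjusted p = 0.0439), and so did edgeR without the PIK75 background (-0.39, adjusted p = 0.00926). BAG3, an HSP70 partner known to be induced by heat shock, gave 0.11, 0.02 and 0.03 and did not pass (adjusted p = 0.492). HSPB1, the small heat shock protein HSP27, rose by 0.43 (SE 0.101), made of 0.17, 0.90 and 0.23, and without the PIK75 background its call was lost.

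The chaperonins, ring-shaped complexes that fold actin, tubulin and mitochondrial proteins, and the prefoldins that feed them rose in larger number. Of 16 measured, 11 rose and 0 fell (median 0.23). At an unadjusted p under 0.05 the falls in these 3 lists numbered 1, 1 and 0, and DESeq2 called 0, 1 and 0. CCT6A, CCT8, CCT2 and CCT3, subunits of the cytosolic ring, rose by 0.34 (SE 0.0574), 0.25 (SE 0.0537), 0.21 (SE 0.0477) and 0.26 (SE 0.0619). Their effects with BGT226 were 0.15, 0.07, 0.10 and 0.17, and with PIK75 left out CCT2 (adjusted p = 0.0827) and CCT3 (0.17) lost their calls. The counts of rises fell to 3 for the HSP90 list, 5 for the HSP70 list (with 1 lower) and 3 for the chaperonins without the PIK75 background, and to 6, 6 and 7 without STA9090 replicate 1 and PIK75 replicate 3.

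Other members of the strict set that rose have varied roles. CCL22, a chemokine that attracts T cells, rose by similar amounts in the 3 backgrounds (0.73, 0.58 and 0.71). It stood at 28.9, 33.1 and 31.2 CPM untreated against 45.3, 49.01 and 60.8 with STA9090, at 14.7, 12.5 and 13.4 with PIK75 against 21.9, 20.7 and 18.4, and at 11.04, 11.1 and 9.18 with BGT226 against 17.8, 17.6 and 15.2 (log2 fold change 0.68, SE 0.0672, adjusted p = 1.92e-06). Levels without STA9090 were lower with either PI3K inhibitor than in untreated cells, so the libraries overlapped across backgrounds and not within them. SPP1, the secreted phosphoprotein osteopontin, ran from 5.60 to 11.3 CPM (median 7.73) without STA9090 and from 9.58 to 16.5 CPM (median 14.1) with it (log2 fold change 0.73, SE 0.0884, adjusted p = 1.76e-05; by background 0.59, 1.05 and 0.58). LRRC8B, a subunit of volume-regulated anion channels, ran from 5.21 to 8.28 CPM (median 6.89) and 8.52 to 14.9 CPM (median 10.04), so that the 9 and 9 did not overlap (log2 fold change 0.68, SE 0.0914, adjusted p = 5.24e-05).

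PARP14, an ADP-ribosyltransferase, OXCT1, which burns ketone bodies, and EIF3E, a subunit of a translation initiation factor, rose by 0.51 (SE 0.0645), 0.41 (SE 0.0576) and 0.42 (SE 0.0654). Each was smallest with PIK75, at 0.40, 0.27 and 0.34, although no test found that the effects differed between backgrounds (adjusted p = 0.6, 0.392 and 0.788). PROS1, the anticoagulant protein S, rose by 0.92 (SE 0.128) from a level of few CPM (mean over all libraries 2.56). The rest of the 15 were SLC2A14, a glucose transporter whose reads may be divided with its near copy SLC2A3 (0.60), FGD4, an exchange factor for CDC42 (0.52), EPB41L4A (0.91) and TMCC3 (0.53). TMCC3 alone of the 66 had libraries that overlapped in a background. Outside the strict set, ENO3, the muscle enolase, gave the largest average rise among protein-coding genes of at least 5 CPM whose libraries were apart in each background (0.86, SE 0.111; 0.73, 1.22 and 0.58), and it overlaps PFN1.

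**Figure D2:**
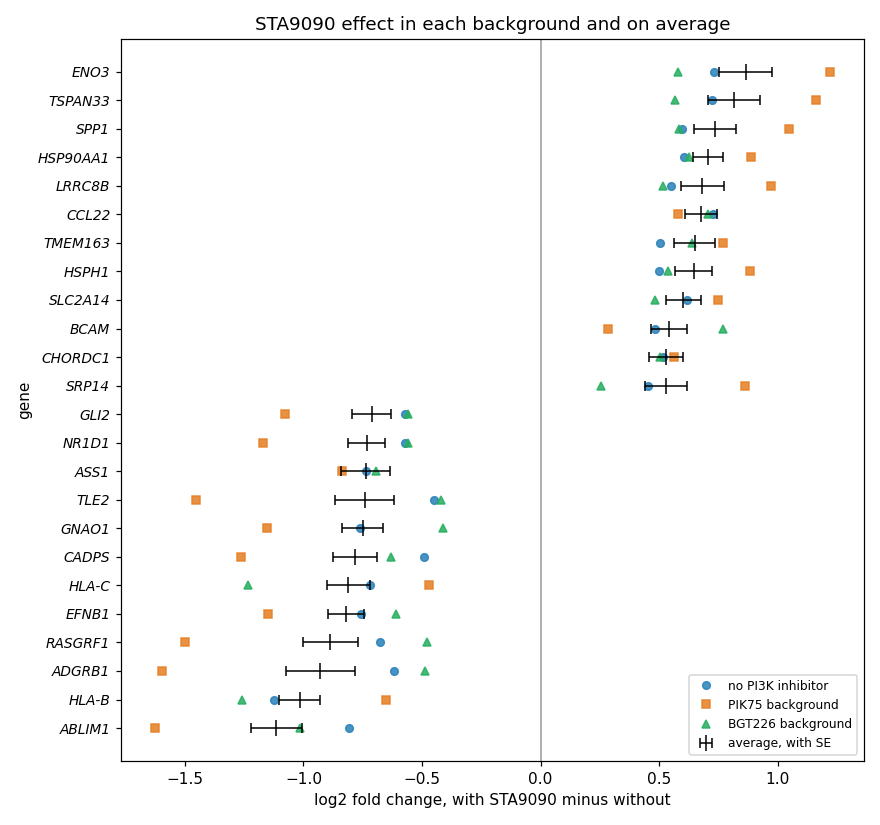
Log2 fold change (horizontal axis, with STA9090 minus without) of the 12 largest rises and 12 largest falls among protein-coding genes of at least 5 CPM whose libraries did not overlap in any background: coloured symbols give each background, black bars the average with its SE. All symbols of a gene lie on 1 side of 0, and the square of the PIK75 background is the farthest from 0 for most genes but not for HLA-B, HLA-C, CCL22 or BCAM.

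HLA-B and HLA-C, class I molecules that show peptides to T cells, fell in every background. HLA-B (ENSG00000234745.11, chromosome 6, 31269491 to 31357188) stood at 36.3, 41.3 and 36.4 CPM untreated against 14.8, 18.3 and 19.6 with STA9090, at 28.7, 28.5 and 36.4 with PIK75 against 18.7, 22.2 and 18.4, and at 45.8, 43.3 and 40.4 with BGT226 against 19.7, 16.4 and 17.9 (log2 fold change -1.02, SE 0.0861, adjusted p = 7.83e-07). The transcript of HLA-C stood at 37.8, 37.3 and 32.6 CPM untreated against 21.4, 22.3 and 21.6, at 26.4, 26.9 and 28.7 with PIK75 against 22.5, 18.2 and 18.7, and at 41.98, 42.02 and 36.1 with BGT226 against 16.99, 19.7 and 14.4 (log2 fold change -0.81, SE 0.0909, adjusted p = 8.51e-06). For both genes the 9 libraries with STA9090 lay below the 9 without, whatever the background. Against the pattern of most called genes, the fall was smallest with PIK75 and largest with BGT226, at -1.12, -0.65 and -1.26 for HLA-B and -0.72, -0.47 and -1.23 for HLA-C (difference between backgrounds, adjusted p = 0.0388 and 0.00544).

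HLA-F, a related class I gene of about 1 CPM, fell with effects of -1.56, -1.57 and -1.94 on the log2 scale. The class I genes are similar in sequence and HLA-B overlaps HLA-C in the annotation, so the division of reads among them is uncertain. B2M, the shared light chain, and TAP2, a subunit of the peptide pump, fell too, with effects of -0.16, -0.12 and -0.51 (adjusted p = 0.00726) and -0.15, -0.63 and -0.44 (adjusted p = 0.000439). The call of B2M was lost without the BGT226 background (-0.14, adjusted p = 0.206). Of 23 class I and interferon-related genes measured, 7 fell and 1 rose (median -0.12), beside 9.70% of all genes lower. The interferon-induced genes had no common direction. IFIT3 rose (0.47, SE 0.128), IFI6 fell (-0.42, SE 0.124), and MX1, OAS1 and ISG15 did not pass. Both calls were lost without the PIK75 background and without the 2 libraries that stand apart, where the counts were 7 and 6 lower and 0 higher.

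Most chaperones of the ER fell. Of 20 measured, 15 fell and 0 rose (median -0.25), with 0 rises at an unadjusted p under 0.05 and 0 by DESeq2. Of all tested genes 9.70% fell and 7.36% rose on average. HSPA5, or BiP, the HSP70 of the ER, stood at 329.5, 318 and 299 CPM untreated against 258, 247 and 242 with STA9090, at 263, 255 and 289 with PIK75 against 218, 229.7 and 215, and at 372, 367 and 390.3 with BGT226 against 237, 232 and 253 (log2 fold change -0.42, SE 0.0575, adjusted p = 5.92e-05). SDF2L1, which works with BiP, stood at 16.1, 17.1 and 18.6 CPM untreated against 10.03, 12.98 and 13.97, at 18.4, 19.2 and 25.5 with PIK75 against 16.9, 17.4 and 13.99, and at 17.1, 17.1 and 15.8 with BGT226 against 10.05, 9.21 and 10.2 (log2 fold change -0.54, SE 0.0815, adjusted p = 0.000176). In both genes the libraries with STA9090 were the lower ones in each background, and the distance was largest with BGT226. HSP90B1, the ER's own HSP90, fell with a value of -0.22 on average (SE 0.0726, adjusted p = 0.043), a call lost in 12 of the 18 fits that left out 1 library.

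HYOU1, DNAJB9, PDIA3 and PDIA4, which fold proteins or pair their cysteines in the ER, gave -0.32 (SE 0.0499), -0.51 (SE 0.0827), -0.27 (SE 0.0521) and -0.26 (SE 0.0573) on average and passed, though without the BGT226 background PDIA3 (adjusted p = 0.0608) and PDIA4 (0.0895) did not. XBP1, a transcription factor of the unfolded protein response, gave -0.13, -0.18 and -0.61, and the difference between backgrounds passed (adjusted p = 0.0105). Tested within backgrounds, 3 of the 20 genes fell with no PI3K inhibitor, 5 fell and 1 rose with PIK75, and 14 fell with BGT226, and the median was -0.14, -0.18 and -0.41. Of all tested genes 1.68%, 14% and 1.7% fell in these comparisons, and 11.3% rose with PIK75. ER genes of the strict set outside that list were TXNDC5, a disulfide isomerase (-0.23, -0.40 and -0.53), and SSR2, part of the translocon (-0.29, -0.33 and -0.46). With PIK75 left out 12 of the 20 fell, without the BGT226 background 5, and without the 2 libraries that stand apart 15.

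The promoter window of HSPA5 is shown because it is the only strictly fallen gene with a match to the ER stress response element, here CCAAT and CCACG with 9 free bases between them, searched on both strands and drawn in capitals.
HSPA5 (chr9:125241294-125241593, minus strand): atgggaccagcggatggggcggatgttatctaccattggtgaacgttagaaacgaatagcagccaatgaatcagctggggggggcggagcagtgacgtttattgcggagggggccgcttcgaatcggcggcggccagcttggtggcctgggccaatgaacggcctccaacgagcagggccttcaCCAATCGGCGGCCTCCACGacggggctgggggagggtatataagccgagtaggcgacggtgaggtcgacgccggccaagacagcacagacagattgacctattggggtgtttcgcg
The match lay 66 to 48 bases before the start. The element was in 0.0769% of all windows and was found for 0.15% of 10633 tested genes with a window. It was found for 7 of the 19 ER chaperone genes with a window (36.8%), namely CALR, CANX, CRELD2, HSP90B1, HSPA5, PDIA6 and XBP1. CALR did not pass (adjusted p = 0.115, and 0.0329 in DESeq2) and the others fell. Of those, HSPA5 passed without the BGT226 background as well, and CANX, CRELD2, HSP90B1, PDIA6 and XBP1 did not. CRELD2 was near the threshold (adjusted p = 0.049), lost in 14 of the 18 fits that left out 1 library. No ER chaperone gene had a window with the heat shock element. Of 54 cytosolic and mitochondrial chaperone genes with a window, 7 did (13.0%). They were CHORDC1, DNAJA1, DNAJB6, HSP90AA1, HSP90AB1, HSPA8 and HSPD1. Of these HSPA8 did not pass on average, and the call of HSP90AB1 was lost in 11 of the 18 fits that left out 1 library.

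**Figure D3:**
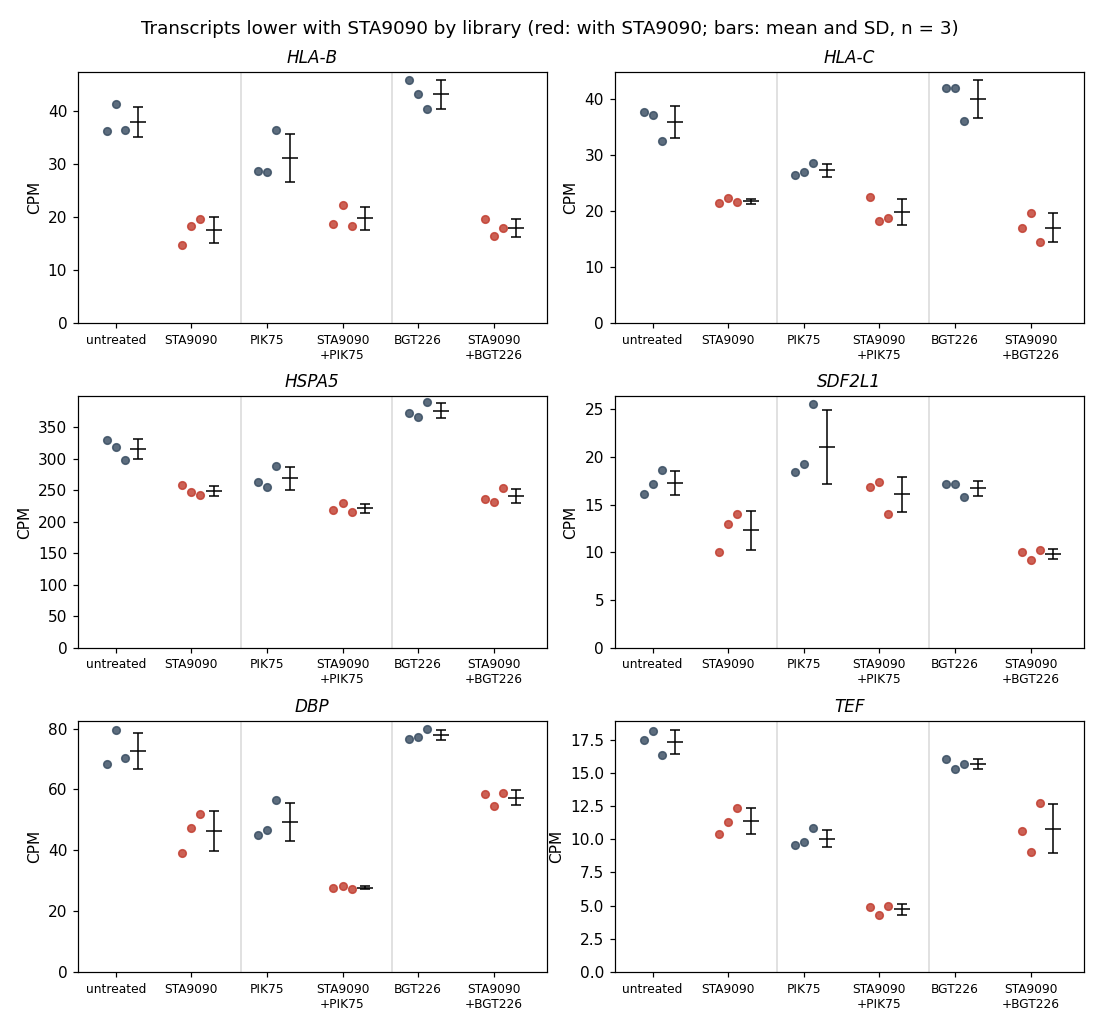
CPM of HLA-B, HLA-C, HSPA5, SDF2L1, DBP and TEF in each of the 18 libraries (points), by group, with the mean and SD of 3 libraries (black); red marks STA9090. The red points lie below the dark ones in each background, and in HLA-B and HLA-C the gap is narrowest with PIK75.

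Transcripts of the circadian clock were gathered into a list after their values had been seen, so their count is a description. Of 17 measured clock genes, 11 fell and 1 rose (median -0.39), beside 9.70% of all tested genes lower and 7.36% higher. DBP, which binds D-box elements at clock output genes, stood at 68.4, 79.5 and 70.3 CPM untreated against 39.2, 47.5 and 52.1 with STA9090, at 45.05, 46.5 and 56.6 with PIK75 against 27.6, 28.2 and 27.4, and at 76.6, 77.2 and 79.9 with BGT226 against 58.5, 54.6 and 58.9 (log2 fold change -0.64, SE 0.0649, adjusted p = 2.06e-06). TEF, of the same family, stood at 17.5, 18.1 and 16.3 CPM untreated against 10.4, 11.3 and 12.4, at 9.58, 9.76 and 10.8 with PIK75 against 4.91, 4.27 and 4.96, and at 16.1, 15.3 and 15.7 with BGT226 against 10.6, 9.05 and 12.8 (log2 fold change -0.71, SE 0.0836, adjusted p = 1.47e-05). Neither overlapped in any background. The PIK75 libraries without STA9090 started from a lower level of both.

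NR1D1, the repressor REV-ERB alpha, fell with effects of -0.57, -1.17 and -0.56 (average -0.73, adjusted p of the difference between backgrounds = 0.00603), and it overlaps THRA. CRY2 and BHLHE40, repressors of the clock's activators, fell with effects of -0.46, -0.34 and -0.38 and -0.56, -0.34 and -0.48. PER2, PER3 and CIART, also repressors, fell with values of -0.61 (SE 0.0990), -0.57 (SE 0.103) and -0.53 (SE 0.0953) on average. The activators ARNTL and CLOCK did not pass, at 0.21 and 0.18, and NFIL3, a repressor at D-box elements, rose by 0.37 (SE 0.0747). With PIK75 left out 10 fell and 1 rose, but the riser was then CLOCK (0.35, adjusted p = 0.00551), and NFIL3 lost its call (0.26, adjusted p = 0.0904). Without the 2 libraries that stand apart 12 fell and 1 rose. All libraries share a 48 h time point, so a change in the phase of a rhythm and a change in its level cannot be told apart.

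ZBTB16, a zinc finger repressor known to respond to glucocorticoids, had the largest average fall of the strict set. It stood at 2.80, 1.96 and 1.61 CPM untreated against 0.761, 0.615 and 0.351 with STA9090, at 2.51, 1.81 and 3.64 with PIK75 against 0.536, 0.883 and 0.518, and at 4.73, 3.35 and 4.36 with BGT226 against 1.12, 1.13 and 0.414 (log2 fold change -2.06, SE 0.207, adjusted p = 1.92e-06). The 9 and 9 libraries did not overlap, at few CPM. Of 13 glucocorticoid-responsive genes, also listed after values were seen, 5 fell and 0 rose (median -0.17), among them TSC22D3 (-0.34, SE 0.0640) and ERRFI1 (-0.26, SE 0.0686), while DUSP1 (-0.12) and SGK1 (-0.07) did not pass. ERRFI1 lost its call without the BGT226 background (-0.21, adjusted p = 0.141) and without the background with no PI3K inhibitor (-0.25, 0.0597). Without the BGT226 background 3 of the 13 fell, and without the 2 libraries that stand apart 4. At an unadjusted p under 0.05, 8 were lower and 0 higher, and DESeq2 called 5 and 0. Of all tested genes 9.70% fell on average in edgeR.

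Other falls are given gene by gene and were not tested as groups. ABLIM1, an actin-binding LIM protein, stood at 30.3, 26.5 and 25.7 CPM untreated against 19.5, 12.5 and 14.8 with STA9090, at 22.9, 24.1 and 18.9 with PIK75 against 6.43, 6.70 and 8.14, and at 33.7, 33.5 and 33.9 with BGT226 against 16.4, 13.8 and 19.6 (log2 fold change -1.12, SE 0.107, adjusted p = 1.4e-06), the largest average change of any called gene at 5 CPM or more. EFNB1, the ligand ephrin-B1, ran from 21.3 to 35.5 CPM (median 31.3) without STA9090 and from 9.55 to 22.3 CPM (median 20.4) with it (log2 fold change -0.82, SE 0.0774, adjusted p = 1.4e-06; by background -0.76, -1.15 and -0.61). GNAO1 and GNAZ, alpha subunits of the inhibitory class of G proteins, fell with effects of -0.76, -1.15 and -0.41 and -0.31, -0.53 and -0.62. The receptors ADRA2A, for adrenaline, and GABBR2, for GABA, which signal through such proteins, fell with effects of -0.56, -1.03 and -0.50 and -0.41, -0.78 and -0.59.

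RASGRF1, an exchange factor for RAS, ran from 9.64 to 19.02 CPM (median 11.8) without STA9090 and from 5.58 to 9.36 CPM (median 6.61) with it, with no overlap of the 9 and 9 (log2 fold change -0.89, SE 0.116, adjusted p = 3.93e-05). Its effect was -1.50 with PIK75 and -0.68 and -0.48 without it (adjusted p of the difference = 0.000626). CADPS and UNC13A, which prime secretory vesicles, fell with values of -0.78 (SE 0.0927) and -0.39 (SE 0.0471), and MAPT, the microtubule protein tau, with a value of -0.54 (SE 0.0741). ASS1, argininosuccinate synthase, was the lowest in the PIK75 background yet fell by a similar log2 amount in each (-0.73, -0.84 and -0.70). The kinase PIM1, the pseudokinase TRIB2 and PHLPP1, a phosphatase that acts on AKT, fell with effects of -0.38, -0.50 and -0.41, -0.48, -0.82 and -0.49 and -0.38, -0.35 and -0.28.

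The strict falls included GLI2, a Hedgehog effector. It ran from 9.68 to 14.8 CPM (median 11.3) without STA9090 and from 4.42 to 9.60 CPM (median 8.33) with it (log2 fold change -0.71, SE 0.0838, adjusted p = 1.47e-05), and the 9 and 9 did not overlap. CDON, a Hedgehog co-receptor, fell with effects of -0.38, -1.02 and -0.39, and the ligand SHH, named after its values were seen, fell with effects of -0.51, -2.14 and -0.32 at a mean of 4.26 CPM. RNF43, which removes WNT receptors from the surface, and FZD7, such a receptor, fell with effects of -0.44, -0.31 and -0.30 and -0.39, -0.59 and -0.44. IGF2, the growth factor typically in excess in these tumours, had a mean of 5142 CPM over all libraries and fell with effects of -0.34, -0.51 and -0.18 (log2 fold change -0.34, SE 0.0651, adjusted p = 0.00115), and its neighbour H19 fell with effects of -0.75, -0.64 and -0.64. Of 17 genes of the IGF2 locus and WNT targets, 7 fell and 1 rose (median -0.09), beside 9.70% of all tested genes lower and 7.36% higher. The counts were 4 and 1 without the PIK75 background and 6 and 0 without the 2 libraries that stand apart.

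Of 11 fatty acid synthesis genes 7 fell and 0 rose (median -0.29, by background -0.12, -0.48 and -0.19; 7 and 0 also by DESeq2 and at an unadjusted p under 0.05), with FASN, the synthase, at -0.26, -0.94 and -0.37, SCD, the desaturase, at -0.18, -0.60 and -0.35, and their regulator SREBF1 at -0.24, -0.52 and -0.26. Of 24 cholesterol synthesis genes 8 fell and 1 rose (median -0.10), and of all tested genes 9.70% fell and 7.36% rose. Without the PIK75 background 3 fatty acid genes fell and 0 rose, and 0 cholesterol genes fell and 2 rose. Without the BGT226 background 6 and 4 fell and 0 and 1 rose, and without the 2 libraries that stand apart 6 and 7 fell and 0 and 1 rose. FASN lost its call without the PIK75 background (-0.52 on average over all 3 backgrounds and -0.32 over the other 2).

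For the steroid pathway the average joined unlike effects. Of 24 steroidogenesis and adrenocortical genes 9 fell and 1 rose (median -0.17), 12 had effects that differed between backgrounds (10.3% of all genes did), and the median was -0.06, -0.55 and -0.05. Left without PIK75, 3 fell and 4 rose, and without the 2 libraries that stand apart 8 fell and 2 rose. AGTR1, the angiotensin receptor, fell in each background, with effects of -0.28, -1.02 and -0.34, though unequally (adjusted p of the difference = 9.68e-05). CYP17A1, which makes the precursors of cortisol and androgens, stood at 266, 282 and 241 CPM untreated against 238, 234 and 279.9 with STA9090, at 87.1, 82.97 and 81.4 with PIK75 against 55.6, 51.1 and 53.4, and at 102, 106 and 104 with BGT226 against 159, 148 and 140.0. STA9090 libraries were thus mixed with untreated ones, all lower with PIK75 and all higher with BGT226 (log2 values -0.07, -0.65 and 0.52; average -0.06, adjusted p = 0.767; difference, adjusted p = 1.32e-05).

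HSD3B2, the enzyme of the step shared by cortisol and aldosterone, followed the same order. It stood at 45.6, 60.3 and 43.8 CPM untreated against 47.97, 53.6 and 51.8, at 43.1, 46.9 and 44.6 with PIK75 against 25.98, 30.2 and 27.1, and at 64.2, 64.1 and 62.1 with BGT226 against 113, 106 and 94.4 (adjusted p of the difference = 1.34e-05). Its average of 0.05 lay between effects of 0.03, -0.69 and 0.72. STAR, which carries cholesterol into mitochondria, and CYP11A1, which cleaves it there, gave 0.31, -0.26 and 0.27 and 0.21, -0.54 and 0.16 (differences, adjusted p = 0.0027 and 0.000769). The growth factor DLK1 fell with 1 sign throughout (-0.25, -0.40 and -0.26).

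**Figure D4:**
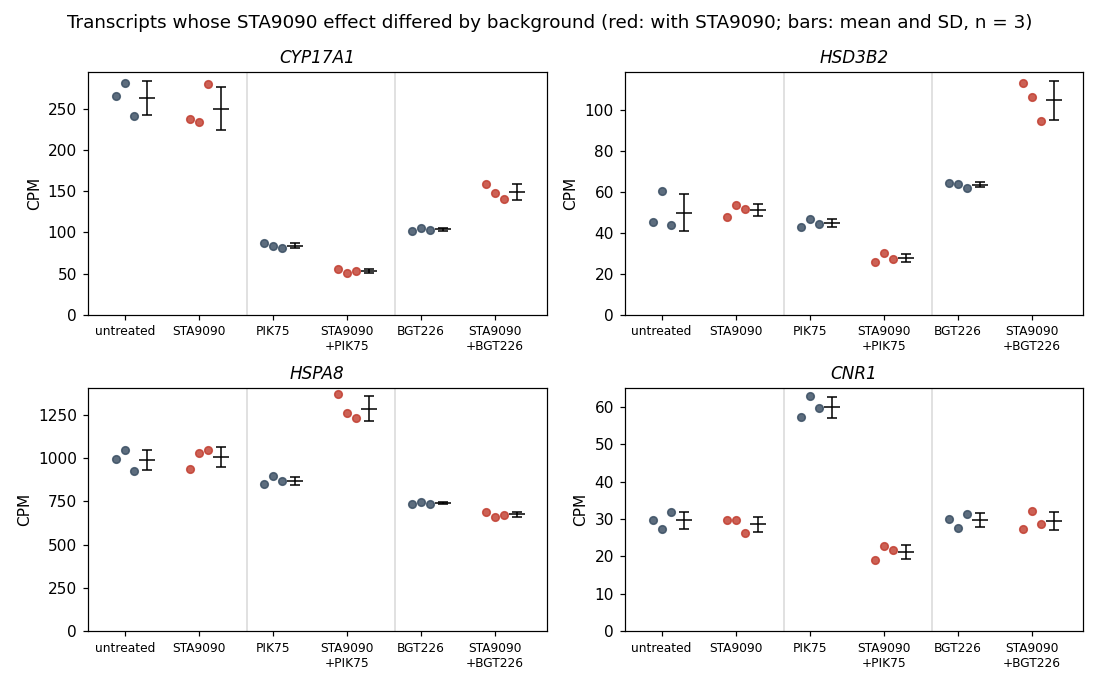
CPM of CYP17A1, HSD3B2, HSPA8 and CNR1 in each of the 18 libraries (points), by group, with the mean and SD of 3 libraries (black); red marks STA9090. Red points lie below dark ones with PIK75 for CYP17A1, HSD3B2 and CNR1 and above them for HSPA8, while with BGT226 the first pair lies above and HSPA8 below.

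The test of a difference between backgrounds called 1633 genes (10.3%), and 1028 without STA9090+PIK75 replicate 1. Of these 1109 were not called on average, and 524 were. The 8 protein-coding genes of at least 5 CPM with the smallest p had their deepest fall with PIK75. They were the cannabinoid receptor CNR1, ASB4, the matrix proteoglycan HSPG2, the lipid transporter ABCA7, the protease CTSC, the peptidase MME, the mechanically gated channel PIEZO1 and the phosphodiesterase PDE2A. CNR1 stood at 29.7, 27.4 and 31.9 CPM untreated against 29.8, 29.8 and 26.3 with STA9090, at 57.3, 62.9 and 59.8 with PIK75 against 19.02, 22.7 and 21.6, and at 29.96, 27.7 and 31.4 with BGT226 against 27.4, 32.1 and 28.8. The 3 PIK75 libraries were the highest of all 18 and the 3 STA9090+PIK75 libraries the lowest (effects -0.05, -1.50 and -0.02). The average call of CNR1 (-0.52, adjusted p = 0.0268) was lost without the PIK75 background, where the value was -0.03, and without any 1 of the STA9090+PIK75 libraries (-0.42 to -0.44). PDE2A kept 1 sign in all 3 (-0.36, -1.38 and -0.17), and HSPG2 did not (-0.48, -1.60 and 0.07). The collagen COL1A1, 1 of the fibroblast markers given above, gave -0.40, -2.87 and -0.11 (adjusted p of the difference = 4.25e-05), and the basement membrane collagen COL4A2 gave -0.39, -1.39 and -0.26.

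Of 44 cytosolic ribosomal protein genes 17 rose and 0 fell (median 0.16, by background 0.20, 0.28 and -0.02), with RPS25 at 0.32, 0.27 and 0.31 and RPL7 at 0.42, 0.52 and 0.19. Of 31 proteasome subunits 5 rose and 0 fell (median 0.07, with BGT226 -0.06), and of all tested genes 7.36% rose. Without the PIK75 background 2 and 1 rose, and without the 2 libraries that stand apart 10 and 3. DESeq2 called 18 and 5 higher and 0 lower, and at an unadjusted p under 0.05 the lower ones were 0 and 1. The 13 mitochondrial mRNAs gave 0 calls in edgeR's and DESeq2's tests, with 1 lower at an unadjusted p under 0.05.

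Of 30 measured transcripts of HSP90's client kinases and receptors, 3 rose and 4 fell (median -0.02), shares near the 7.36% and 9.70% of all tested genes, and the client proteins were not measured. FGFR1 fell with effects of -0.23, -0.47 and -0.28 and the cell cycle kinase WEE1 with effects of -0.21, -0.16 and -0.24, a call lost without the BGT226 background (-0.19, adjusted p = 0.0653). EGFR rose on average (0.46, SE 0.102) with values of 0.00, 0.92 and 0.46 (adjusted p of the difference = 0.00517). Its call was lost without the PIK75 background (0.26, adjusted p = 0.0945) and without the BGT226 background (0.45, 0.0537). Without the PIK75 background 1 of the 30 rose and 2 fell. The 16 BCL2 family genes, which control cell death, gave 0 calls with either tool and 1 lower at an unadjusted p under 0.05. Of 28 G2/M genes 1 rose and 3 fell (median -0.05), and of 25 G1/S genes 1 rose and 7 fell (median -0.10), beside 7.36% of all tested genes higher and 9.70% lower. Within backgrounds, 9 of those 25 fell with BGT226, where 1.7% of all tested genes did. With PIK75 3 rose and 3 fell, near the 11.3% and 14% of all tested genes there. Without the BGT226 background 2 rose and 1 fell on average. Of the 28 G2/M genes 10 fell and 0 rose with PIK75, beside the same 14% and 11.3%. With BGT226 2 fell and 1 rose, and with no PI3K inhibitor 0 fell and 0 rose. Their medians were 0.15, -0.16 and -0.09, and 8 had effects that differed between backgrounds (10.3% of all genes did). On average 9 fell and 0 rose without the background with no PI3K inhibitor, and 1 fell and 2 rose without the PIK75 background.

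**Figure D5:**
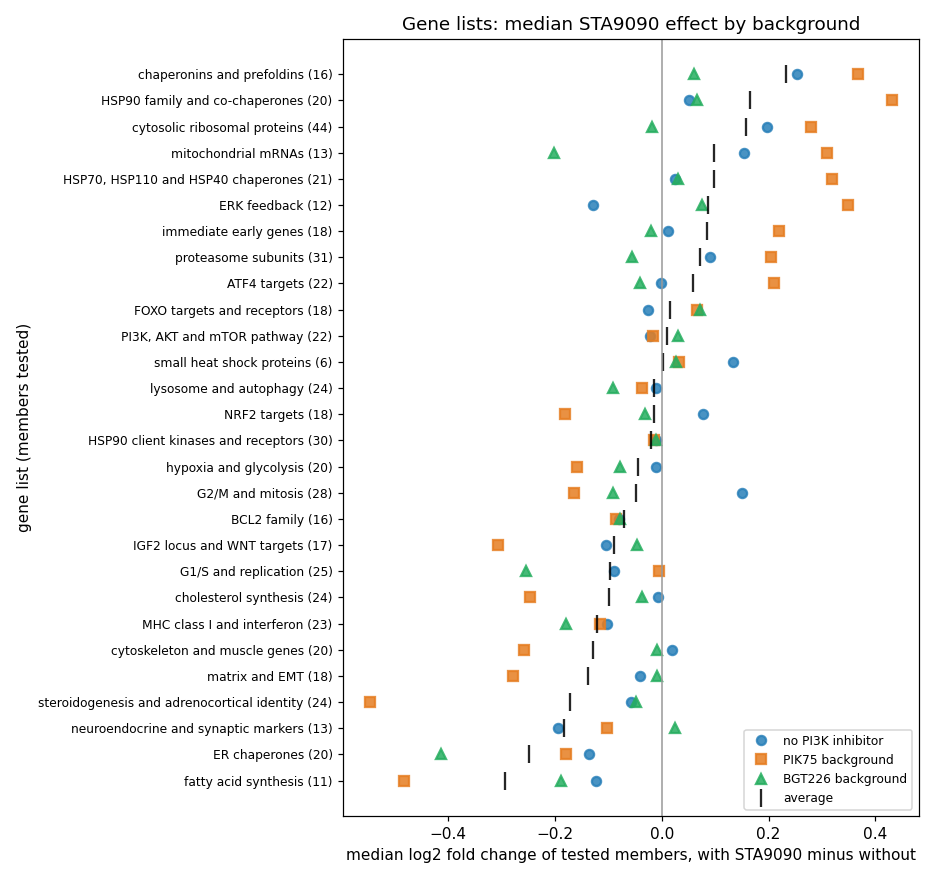
Median log2 fold change (with STA9090 minus without) of the tested members of gene lists, without those made after values were seen or with under 5 members tested, in each background (coloured symbols) and on average (black bar), with the number of members tested in brackets. Of the lists drawn, chaperonins, the HSP90 list and ribosomal proteins lie highest on average and the ER chaperones and fatty acid genes lowest, and for the ER chaperones the BGT226 symbol is the farthest from 0.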

How the data were processed

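RNA sequencing libraries were made from total RNA after depletion of ribosomal RNA with a stranded kit and read as paired ends, per the labels' protocols. For each gene the authors deposited unnormalized expected counts in 18 libraries of 6 groups of 3. They were made with RSEM 1.3.1, STAR 2.7.0f, cutadapt 1.18 and bcl2fastq 2.20 on hg38, tools listed without settings in the submitters' processing notes. The sources used here do not give the annotation release or the strand setting of the counting, so reads of overlapping genes and near copies may be divided in ways the table does not show.

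Expected counts were rounded, filtered with filterByExpr in edgeR 4.0.16 (at least 10 counts, 15 in total), then scaled by TMM (factors 0.903 to 1.13) in R 4.3.3. CPM are counts scaled with these factors. The average effect came from a quasi-likelihood F-test in edgeR, in a model of STA9090 and background. Effects within backgrounds, and the 2-degree-of-freedom test of their difference, came from a fit of 6 group means. Adjusted p-values are Benjamini-Hochberg values across all 15787 genes tested, with a threshold of 0.05. Log2 fold changes used a prior count of 0.125, and each SE was computed as that value's size over the square root of F. The biological coefficient of variation was 11.9%. In simulated data of 15622 genes with this design, 91.9% of 2-fold and 73.7% of 1.5-fold average changes were recovered, and 2.23% of calls were unchanged genes. The changes to be recovered were equal in all backgrounds, and far fewer genes were changed than were called here. Genes changed only in STA9090+PIK75 were left out of the unchanged ones. The 2.23% thus does not cover average calls that rest on 1 background.

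Genes were named by a rule: the 12 largest rises and falls of the average among protein-coding genes of at least 5 CPM whose libraries did not overlap in any background, up to 4 members of each of 31 gene lists with the smallest adjusted p, 20 genes chosen for the drug and the tumour, the 8 genes with the clearest difference between backgrounds, and the 66 called in each background. Members, lists and this rule were chosen with earlier results of these data known. The 66 were added to the rule after values were seen. Other list members, and SHH, HCP5 and the clock and glucocorticoid lists, were also chosen after their values were seen. 1 list and 1 gene are not reported here. Gene types and positions came from GENCODE 29, to which 99.5% of IDs matched, and promoters from RefSeq.

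Replicate libraries differed by more than counting noise (chi-square per degree of freedom 4.20 to 53.4). Alternatives were other size factors, filters and models, DESeq2 1.42.0, a block for the replicate number, removal of the 50 genes with most counts, and each background or library left out. Leaving out STA9090 replicate 1 and PIK75 replicate 3 together was added after seeing the data.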

Additional observations from a re-analysis of the deposited data

Results flagged for a closer look

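Of the genes whose values are given, 40 had effects of STA9090 that differed between the 3 backgrounds by the test of the difference itself (edgeR, adjusted over all genes), 33 of them largest with PIK75, 5 with BGT226 and 2 with no PI3K inhibitor. The adjusted p was 4.86e-07 for CNR1, 4.86e-07 for ASB4, 7.87e-07 for HSPG2, 6.59e-06 for ABCA7, 6.59e-06 for CTSC, 6.59e-06 for MME, 6.59e-06 for PIEZO1 and 6.69e-06 for PDE2A. In the steroid pathway it was 1.32e-05 for CYP17A1, 1.34e-05 for HSD3B2, 9.68e-05 for AGTR1, 0.000769 for CYP11A1 and 0.0027 for STAR. Among cytosolic chaperones it was 0.00155 for HSPA8, 0.00155 for HSPA1A, 0.00475 for STIP1, 0.0141 for HSPB1 and 0.0258 for CCT6A.

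In the antigen presentation and interferon genes it was 0.00544 for HLA-C, 0.0388 for HLA-B, 0.0461 for TAP2 and 0.044 for IFIT3. Of these HLA-B and HLA-C were lowered least with PIK75. XBP1 (0.0105) was lowered most with BGT226. Among clock and hormone-responsive genes it was 0.00603 for NR1D1, 0.00475 for CLOCK and 0.0489 for TSC22D3. For the matrix genes it was 1.2e-05 for COL4A2 and 4.25e-05 for COL1A1. The others were SHH (0.000348), RASGRF1 (0.000626), CADPS (0.00325), EGFR (0.00517), CDON (0.00554), GNAO1 (0.00562), MAPT (0.00768), ST3GAL5 (0.0113), ABLIM1 (0.0362), ADRA2A (0.0433), FASN (0.044) and NCAM1 (0.0358).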

How the results depend on the processing

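The counts of genes higher and lower on average, and of those with 1 sign in all backgrounds, stayed within 1.5 times of the reported ones with RLE size factors, with both filters, with DESeq2, with group means and with the 50 most counted genes left out. So did the count of genes whose effect differed, which has no value of its own for group means. Without the PIK75 background 444 genes were higher and 574 lower, all of 1 sign in the other 2 backgrounds (444 and 574). Without the BGT226 background 737 were higher. Without STA9090 replicate 1 and PIK75 replicate 3 together, 713 were higher and 660 of 1 sign were higher. Leaving out 1 library at a time gave 781 to 1225 higher, 1194 to 1643 lower, 727 to 1106 and 1149 to 1518 of 1 sign, and 1028 to 1889 with a difference between backgrounds. The difference in the RNA polymerase III share ran from 1.45 to 2.95 points and had an unadjusted p under 0.05 without untreated replicate 2 (exact permutation test). The difference in the mitochondrial share ran from -0.107, without untreated replicate 2, to 0.898.

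The average with PIK75 left out turned direction, without passing, for HSPA1A (-0.16), HSPA8 (-0.054), CYP11A1 (0.19), CYP17A1 (0.22), ASB4 (0.07), ABCA7 (0.058), MME (0.0091) and PIEZO1 (0.0289). HSD3B2 turned to -0.32 without the BGT226 background and ran from -0.0248 to 0.12 with 1 library left out. Leaving out BGT226 replicates 1, 2 and 3 or STA9090+BGT226 replicate 1 turned it. The causes were not tested.

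The replicate numbers did not pair the libraries. The deviations of libraries with the same number correlated within a background at -0.149 to 0.0773, 0 of 9 were over 0.1, and 3 of 18 libraries correlated best with their own number. With the replicate block 1014 genes were higher and 1414 lower, 950 and 1330 with 1 sign, and 1444 with a difference between backgrounds.

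At this depth (10.2 to 21.1 M) and with 9 libraries a side, average changes of 1.5-fold and above can be missed too: simulated ones were recovered for 73.7% of genes at 1.5-fold and 91.9% at 2-fold. Values of genes at few CPM, such as HLA-F, ZBTB16 and PROS1, rest on few reads, and DESeq2 gave HLA-F and CD14 no adjusted p, so neither has a verdict from that tool.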

Other observations

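Other gene groups gave smaller counts, to be read beside the 7.36% of all tested genes higher and 9.70% lower on average. Of 13 neuroendocrine and synaptic markers 3 fell and 1 rose (median -0.18), among them the adhesion molecule NCAM1 (-0.35, -0.66 and -0.25) and the synaptic vesicle protein SYP (-0.53, -0.53 and -0.27), both called on average. Without the PIK75 background these counts were 3 and 0. Of 24 lysosome and autophagy genes 6 fell and 1 rose (median -0.01), and 2 and 0 without the PIK75 background. They included the protease CTSD (-0.40, SE 0.0655; -0.47, -0.49 and -0.24) and TFEB, the transcription factor of lysosome genes (-0.55, SE 0.133). Of 22 ATF4 targets 3 rose and 3 fell (median 0.06), or 1 and 0 with PIK75 left out, and SLC7A11, the cystine transporter, rose by 0.63 (SE 0.0973; 0.53, 0.97 and 0.29). Tested within the PIK75 background, 9 of these 22 targets rose and 3 fell, where 11.3% and 14% of all tested genes did. With no PI3K inhibitor 1 rose and 0 fell, and with BGT226 0 rose and 0 fell. For 8 of the ATF4 targets the effect differed between backgrounds, beside 10.3% of all tested genes. Of 22 genes of the PI3K, AKT and mTOR pathway 4 rose and 2 fell (median 0.01), or 3 and 0 with PIK75 left out, with RICTOR, a subunit of an mTOR complex, at 0.48, 0.12 and 0.33 and the lipid phosphatase INPP4B, whose call was lost with PIK75 left out, at 0.22, 0.34 and 0.30.

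HCP5, a transcript of the class I region near HLA-B, fell with effects of -1.05, -0.93 and -1.93 at a mean of 1.10 CPM, and its 9 libraries with STA9090 lay below the 9 without. Across all tested genes the effects in the 3 backgrounds correlated at r = 0.184 (no PI3K inhibitor with PIK75), 0.244 (no PI3K inhibitor with BGT226) and 0.278 (PIK75 with BGT226). These are descriptions across genes, which are not independent, and the 3 comparisons share no library. The SD of the effects over all genes was 0.37, 0.50 and 0.36 on the log2 scale. No test was made of these correlations or SDs.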
